A study of Mus musculus with 58 samples.

Results

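Transcripts of 7 genes of the p38 kinase cascade were followed in mouse somatosensory cortex after repeated mild head injury and treatment with a p38 inhibitor. The genes were Map3k5, Map3k7, Tab1, Map2k3, Map2k4, Mapk11 and Mapk14, taken by symbol from a table of read counts that lists 9636 genes in 58 libraries, and all 7 were measured in every library. The animals were C57BL/6J mice of both sexes, aged 2 to 4 months at the start, and the labels name no transgene or deletion. Each mouse had 5 daily closed head injuries (5xCHI) or 5 sham procedures, and each procedure was followed after 30 min by an intraperitoneal injection of SB239063 (SB, 20 mg/kg) or of the saline vehicle. Every library analysed here is from the chronic time, for which the series' text names about 18 and 34 days after the last procedure without saying which mice belong to which. The females were 9 sham vehicle, 3 sham SB, 12 injured vehicle and 11 injured SB mice. The males were 5 sham vehicle, 2 sham SB, 8 injured vehicle and 8 injured SB mice. The labels give 4 cohorts in each sex (F1 to F4 and M1 to M4) and do not say what set a cohort apart, and sham SB mice were present in F1, F2, M1 and M2 only.

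The p38 cascade is a relay of kinases that carries stress and cytokine signals from the cell surface to transcription and mRNA stability. At its top stand MAP3 kinases such as ASK1 (Map3k5), which responds to oxidative stress, and TAK1 (Map3k7), which responds to cytokines and is activated by its binding partner TAB1 (Tab1). They phosphorylate the MAP2 kinases MKK3 (Map2k3), which acts on p38, and MKK4 (Map2k4), which acts on p38 and on JNK, and these in turn activate p38 alpha (Mapk14) and p38 beta (Mapk11). SB239063 blocks the catalytic site of p38 alpha and p38 beta. In brain the cascade is known for its part in the production of inflammatory cytokines by glia and in the response of neurons to stress. The values here are levels of mRNA, and the activity of the kinases was not measured.

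Each library held between 28316280 and 49158277 counts of listed genes, and the 7 genes had between 326 and 10358 counts per library. Sampling error was thus small beside the spread between libraries. Marker lists were used to describe the tissue. All 5 excitatory neuron, 5 inhibitory neuron, 5 astrocyte, 5 microglia, 7 oligodendrocyte and 4 endothelial markers were measured. The smallest count listed for any gene is 101, so no listed marker could be at 0, and their presence is no check of cortical identity. The summed excitatory markers lay between 3132 and 6485 CPM (counts scaled to the library's size), and 2 of 5 striatal markers were measured, at a sum of 66.9 to 499 CPM. Oligodendrocyte markers ran from 2363 to 19749 CPM, the highest being female sham vehicle replicate 1, and up to 11801 CPM in the other libraries. In bulk tissue, fewer cells of a type and less RNA per cell cannot be told apart. By distance from the median on the leading principal components, 4 libraries stood apart, namely female sham vehicle replicates 1 and 7, female injured SB replicate 8 and male sham vehicle replicate 2.

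The promoters of the 2 inhibitor targets, and of the 2 MAP2 kinases that stood at opposite ends of the level scale, are shown because the results turn on these 4 genes. The windows are the 250 bases before the annotated start in RefSeq (GRCm38.p6), which held 6 of the 7 genes and no entry for Tab1. Where RefSeq has 2 starts, as for Mapk14 and Map2k4, the one farthest upstream was used. Each is written 5′ to 3′ on the gene's strand, and capitals mark the GC box GGGCGG or its reverse complement.
Mapk14 promoter, chr17:28691092-28691341, plus strand: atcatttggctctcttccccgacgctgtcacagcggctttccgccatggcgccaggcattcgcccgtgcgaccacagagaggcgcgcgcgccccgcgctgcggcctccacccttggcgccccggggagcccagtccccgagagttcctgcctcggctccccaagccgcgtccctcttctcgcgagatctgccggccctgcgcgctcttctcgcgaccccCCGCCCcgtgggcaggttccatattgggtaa
Mapk11 promoter, chr15:89149607-89149856, minus strand: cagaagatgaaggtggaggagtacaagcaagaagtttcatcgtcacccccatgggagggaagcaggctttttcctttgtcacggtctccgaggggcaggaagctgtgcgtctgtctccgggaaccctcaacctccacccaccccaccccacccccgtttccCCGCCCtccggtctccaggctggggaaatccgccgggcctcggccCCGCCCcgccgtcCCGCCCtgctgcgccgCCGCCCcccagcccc
Map2k3 promoter, chr11:60931804-60932053, plus strand: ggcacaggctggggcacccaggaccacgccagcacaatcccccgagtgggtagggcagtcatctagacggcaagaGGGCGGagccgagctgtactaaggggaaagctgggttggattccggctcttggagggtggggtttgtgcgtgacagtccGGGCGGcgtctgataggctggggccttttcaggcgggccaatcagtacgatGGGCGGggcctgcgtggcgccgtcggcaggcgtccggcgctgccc
Map2k4 promoter, chr11:65788360-65788609, minus strand: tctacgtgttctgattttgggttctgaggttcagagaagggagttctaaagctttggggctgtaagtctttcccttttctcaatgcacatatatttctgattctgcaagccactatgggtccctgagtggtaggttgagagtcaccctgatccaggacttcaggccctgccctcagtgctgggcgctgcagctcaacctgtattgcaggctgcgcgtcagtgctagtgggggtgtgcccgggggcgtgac

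Mapk11 held 4 GC boxes, the element to which Sp-family factors bind, Map2k3 held 3, Mapk14 held 1 and Map2k4 held 0. Map3k5 and Map3k7 each held 2 in windows not printed. On both strands together, 33.0% of 27025 promoter windows of this length held at least 1. Map2k4 was also the least GC-rich of the 6, at 54.0% with 6 CpG dinucleotides, near the median window of 52% and 6. Mapk11 had 68.0% and 18, Map2k3 67.6% and 20, and Mapk14 70.4% and 30. The CCAAT box (letters CCAAT, either strand, present in 34.5% of windows) was found in Mapk14 and Map2k3, and the core of the cyclic AMP response element (letters TGACG, either strand, present in 17.8%) in Mapk11, Map2k4 and Map3k7. These are matches of letters in a fixed window, and binding was not measured. The windows at the other starts of Mapk14 and Map2k4 were not described, so the values of these genes hold for the printed windows only. Which start is used in cortex was not measured.

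The order of transcript levels was set by the MAP2 kinases at both ends. Levels between genes were compared as CPM scaled by TMM factors and divided by the length of the longest coding transcript in kilobases. Map2k4 was the highest at 53.7 ± 4.87 CPM per kilobase (SD, n = 58), above 87.0% of the 9507 genes with a length. Its partner Map2k3 was the lowest at 6.58 ± 1.16, above 18.8% of those genes. Within each library Map2k4 exceeded Map2k3 by 5.07-fold to 14.3-fold per kilobase.

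The p38 kinases came next to the top. Mapk14 stood at 31.5 ± 2.00 CPM per kilobase and Mapk11 at 30.8 ± 5.98 (SD, n = 58 each), beside an all-gene median of 14.8. Mapk14 was the higher of the pair in 37 of 58 libraries, so their order was not settled beyond their spread. The MAP3 kinases Map3k7 and Map3k5 stood at 12.8 ± 0.938 and 12.4 ± 1.13 CPM per kilobase, with Map3k7 higher in 38 of 58 libraries, and these neighbours overlapped as well. Tab1 followed at 8.71 ± 1.07. The steps from Map2k4 to Mapk14 and from Mapk11 to Map3k7 held in 58 of 58 libraries, that from Map3k5 to Tab1 in 56 and that from Tab1 to Map2k3 in 51. Length matters for 3 genes: with the median coding transcript in place of the longest, Map2k4 stood at 255 CPM per kilobase, Map3k5 at 26.6 and Mapk14 at 35.9, which puts Map3k5 above Map3k7.

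**Figure D1:**
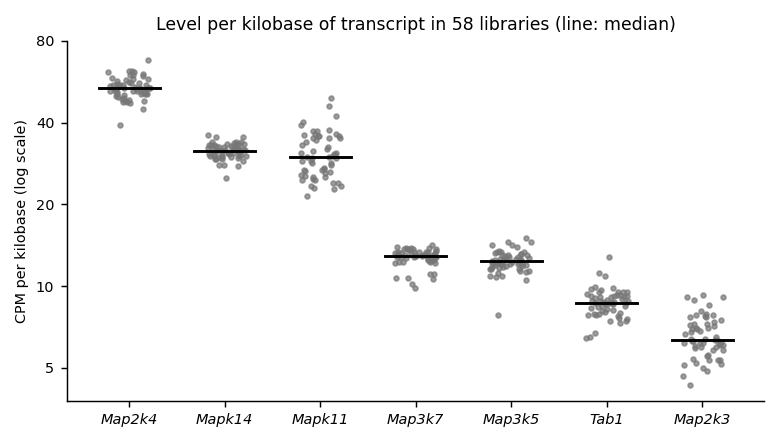
Level of each gene in CPM per kilobase of its longest coding transcript, on a log axis. Each point is 1 of 58 libraries and the line is the median. Map2k4 has the highest median and Map2k3 the lowest. Neighbours overlap: Map2k4 (from 39.2) with Mapk11 (up to 49.3), Mapk14 with Mapk11, Map3k7 with Map3k5, and Map2k3 (up to 9.28) with Tab1 (from 6.45).

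The 2 p38 kinases, alike in level, differed in their spread between libraries. The biological coefficient of variation was 0.0673 for Mapk14 and 0.151 for Mapk11. This is the spread between libraries of a group and cohort beyond counting error, and part of it may be technical. Only 2.67% of all 9636 genes varied less than Mapk14, whereas 85.8% varied less than Mapk11. The remaining genes lay between them, with Map2k4 at 0.0831, Map3k7 at 0.0836, Map3k5 at 0.0917, Tab1 at 0.128 and Map2k3 at 0.144. In CPM, Mapk14 ran from 89.6 to 129 over the 58 libraries and Mapk11 from 53.0 to 121.

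**Figure D2:**
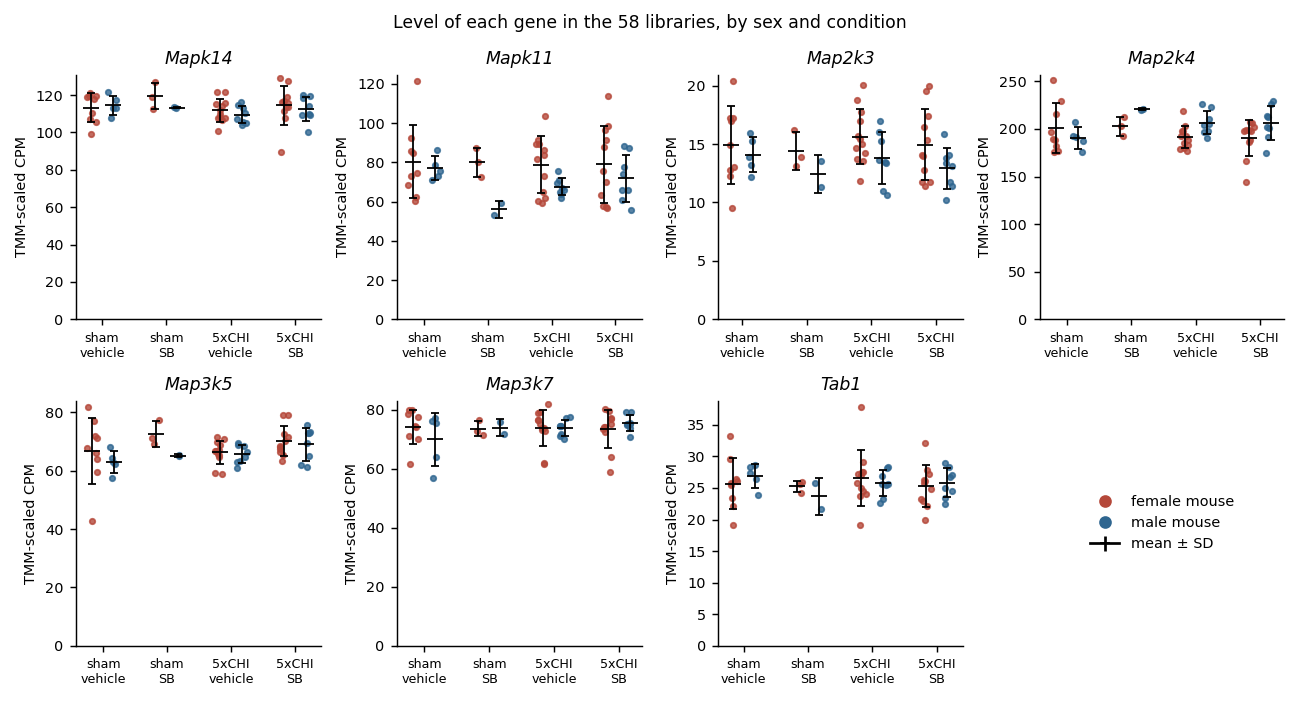
TMM-scaled CPM of each gene (vertical axis, from 0) in the 4 conditions, with females in red and males in blue. Points are libraries and bars are the mean and SD of each sex within a condition. The groups overlap in most panels. The 2 male sham SB libraries lie below all 5 male sham vehicle libraries for Mapk11 and above them for Map2k4. The share of all genes that separate these libraries was not counted.

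Injury in vehicle mice was compared with sham to see whether the cascade's transcripts still differed weeks after repeated injury. No gene of the cascade passed: 0 of 7 had an adjusted p under 0.05 by the edgeR quasi-likelihood test with Benjamini-Hochberg adjustment, and 0% of all 9636 genes did (169 had an unadjusted p under 0.05). DESeq2 called 0 as well. The log2 fold changes of the 7 genes ran from -0.12 to 0.037, and 4 of 7 were above 0.

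Among the activators at the top, Map3k5 stood at 42.7, 65.1 and 82.0 CPM (lowest, median and highest of 14 sham vehicle mice) and at 59.0, 66.6 and 71.6 CPM in 20 injured vehicle mice. The corresponding values of Map3k7 were 56.9, 74.9 and 79.8 CPM in sham and 61.5, 74.4 and 81.7 CPM in injured mice. Tab1 had 19.1, 26.3 and 33.2 CPM in sham and 19.2, 25.7 and 37.9 CPM in injured mice. The ranges overlapped for all 3 genes, and each sham minimum of the MAP3 kinases came from a library that lay far from the rest. The log2 fold changes were 0.037 ± 0.048 (SE) for Map3k5, 0.035 ± 0.043 for Map3k7 and -0.0084 ± 0.068 for Tab1.

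For the MAP2 kinases the picture was the same. Map2k3, which is selective for p38, had 9.55, 14.4 and 20.4 CPM in sham and 10.7, 14.8 and 20.1 CPM in injured vehicle mice. Map2k4, which also serves JNK, had 175, 190 and 252 CPM in sham and 177, 197 and 226 CPM in injured vehicle mice. Medians differed by less than the range within either group. The fold changes were 0.015 ± 0.078 for Map2k3, with a 95% interval of -0.14 to 0.17, and 0.028 ± 0.042 for Map2k4, with an interval of -0.057 to 0.11.

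The kinases that SB239063 targets had the lowest fold changes of the 7. Mapk14 stood at 99.2, 115 and 122 CPM in sham and at 101, 110 and 122 CPM in injured vehicle mice. Mapk11 stood at 60.3, 75.2 and 121 CPM in sham and at 59.1, 70.2 and 104 CPM in injured vehicle mice. Injured medians were the lower ones for both, within overlapping ranges. The fold changes were -0.041 ± 0.034 for Mapk14 (interval -0.11 to 0.028) and -0.12 ± 0.079 for Mapk11 (interval -0.28 to 0.038). Neither passed, with adjusted p = 1.00 for both and unadjusted p = 0.238 and 0.135. Without female sham vehicle replicate 7 the value of Mapk11 was -0.051, and without the 4 far libraries -0.058.

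**Figure D3:**
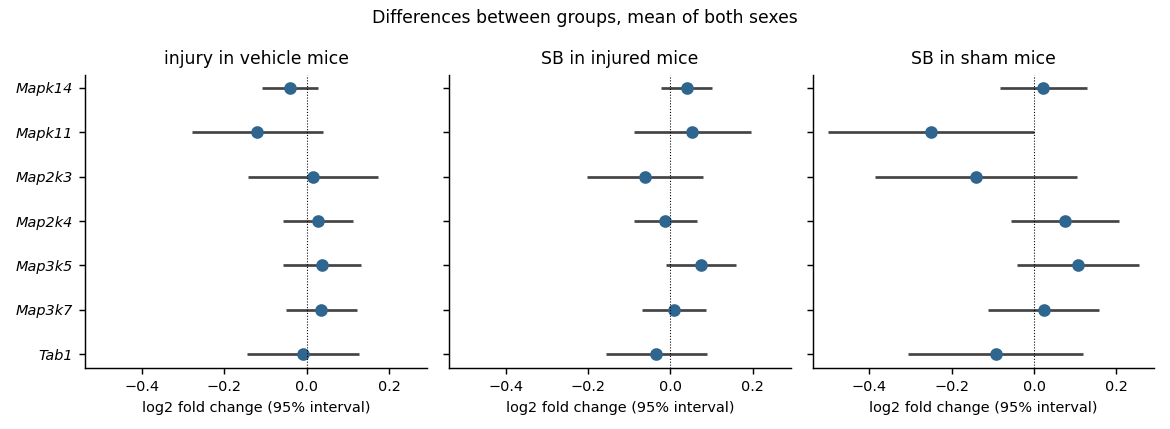
Log2 fold change of each gene with its 95% interval (horizontal axis) for injury, for SB after injury and for SB after sham, averaged over the sexes. Every interval includes 0, and the widest are those of SB in sham mice, where Mapk11 lies at -0.25.

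SB was compared with vehicle in injured mice to see whether the inhibitor, given only around the time of injury, left a difference in the transcripts of its own pathway. Here too 0 of 7 genes passed, beside 0% of 9636 genes, of which 680 had an unadjusted p under 0.05. DESeq2 called 0 genes. This comparison and the injury comparison share the injured vehicle mice, so their fold changes are not independent. Summed oligodendrocyte markers stood at 2363 to 8340 CPM (median 6557) with SB and 4948 to 11801 CPM (median 7010) with vehicle, in overlapping ranges, and their part in the values of the 7 genes was not tested.

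Map3k5 had the largest of the 7 differences. In 19 injured SB mice it stood at 61.2, 69.3 and 79.1 CPM (lowest, median and highest), against a vehicle median of 66.6 CPM. The fold change was 0.074 ± 0.043 with an interval of -0.011 to 0.16 (unadjusted p = 0.0875, adjusted p = 0.725 by edgeR). The 6 other genes had smaller fold changes. Map2k3 had 10.2, 13.8 and 20.0 CPM with SB and a fold change of -0.062 ± 0.070, and Mapk11 had 56.0, 73.9 and 114 CPM and 0.053 ± 0.071. Mapk14 had 89.6, 114 and 129 CPM with SB and 0.040 ± 0.031. All of these ranges overlapped those of vehicle mice. Tab1 had a fold change of -0.034 ± 0.061, Map2k4 of -0.012 ± 0.038 and Map3k7 of 0.0084 ± 0.039, and for these 3 genes the injured SB medians were 25.7, 199 and 75.1 CPM. With each library left out in turn Mapk11 ran from 0.024 (without female injured SB replicate 10) to 0.074, Map2k3 from -0.086 to -0.035 (without male injured SB replicate 1) and Tab1 from -0.062 (without female injured SB replicate 8) to -0.0022 (without female injured vehicle replicate 2).

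In sham mice, where SB was given without injury, Mapk11 had the lowest fold change of the 7. The 3 female sham SB mice stood at 72.6, 87.6 and 80.1 CPM and the 2 males at 53.0 and 59.1 CPM. Both males lay below every one of the 5 male sham vehicle mice, which had 86.5, 73.2, 75.8, 71.0 and 78.6 CPM. The females lay within the range of the 9 female sham vehicle mice (60.3 to 121 CPM). With 2 mice against 5 a gene can separate by chance, and the share of all genes that did was not counted. The fold change of Mapk11 over both sexes was -0.25 ± 0.12, with an interval of -0.50 to 6.0e-04 (unadjusted p = 0.0505, adjusted p = 0.677 by edgeR). By that test 0 of 7 genes passed, as did 0% of all genes (676 with an unadjusted p under 0.05; DESeq2 also called 0). Without female sham vehicle replicate 7, the highest library at 121 CPM, the fold change was -0.20, and with only the cohorts that hold sham SB mice it was -0.17.

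Map2k4 in the same males went the other way by level: 221 and 220 CPM with SB, above the 175, 193, 191, 188 and 207 CPM of the male sham vehicle mice. The 3 female sham SB mice had 213, 203 and 193 CPM, inside the female sham vehicle range of 176 to 252 CPM. The fold change over both sexes was 0.076 ± 0.066. Among the others, Map2k3 was at -0.14 ± 0.12, Map3k5 at 0.11 ± 0.073, Tab1 at -0.093 ± 0.11, Map3k7 at 0.023 ± 0.067 and Mapk14 at 0.023 ± 0.053, and none passed. With 5 sham SB mice these intervals are the widest of the 3 comparisons, and single libraries moved the values. Map2k3 was at -0.26 without male sham SB replicate 1 and at -0.034 without replicate 2, and Tab1 at -0.016 and -0.18 in that order. Map3k5 was at 0.057 without female sham vehicle replicate 1, and Map2k4 at 0.040 without female sham SB replicate 1. Marker sums also separated the 2 male sham SB libraries from the 5 male sham vehicle libraries: inhibitory neuron markers stood at 984 and 1032 CPM against 821 to 920, microglia markers at 312 and 317 against 261 to 310 and the 2 striatal markers at 125 and 196 against 83.8 to 101. Their part in the male values of Mapk11 and Map2k4 was not tested. As the share of all genes that separate these libraries was not counted, no SB effect was read from the separation.

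The difference of the SB effect between injured and sham mice was tested as an interaction. Mapk11 had an interaction of 0.30 ± 0.14 on the log2 scale (interval 0.015 to 0.59), which came from 0.053 in injured and -0.25 in sham mice. Its unadjusted p was 0.0396 and its adjusted p 0.999, so it did not pass, and neither did any of the 7 genes or of all genes (0%, with 133 at an unadjusted p under 0.05). With only the cohorts that hold sham SB mice the value was 0.16 (unadjusted p = 0.189), 0.25 without female sham vehicle replicate 7, and 0.25 to 0.33 with each library left out in turn, at unadjusted p from 0.0241 to 0.109.

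Injured SB mice were also set against sham vehicle mice. Map3k5 was at 0.11 ± 0.048 there (interval 0.014 to 0.21, unadjusted p = 0.0252, adjusted p = 0.366 by edgeR). No gene passed, 0 of 7 and 0% of all genes, with 1211 at an unadjusted p under 0.05, and DESeq2 called 0. The value for Map3k5 rested partly on 1 library: without female sham vehicle replicate 1, in which Map3k5 was at 42.7 CPM and the oligodendrocyte markers summed to 19749 CPM, it was 0.072, and without the 4 far libraries it was 0.059 (unadjusted p = 0.149).

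Injury effects were then taken in each sex. Map2k4 was the only one of the 7 genes whose injury effect differed between the sexes at an unadjusted p under 0.05, by 0.21 ± 0.085 (male minus female, interval 0.038 to 0.38, unadjusted p = 0.0175), and with an adjusted p of 0.786 it did not pass. In females the 12 injured vehicle mice stood at 177, 190 and 219 CPM (lowest, median and highest) and the 9 sham vehicle mice at 176, 189 and 252 CPM, a fold change of -0.076 ± 0.052. It was -0.039 without female sham vehicle replicate 9, the highest library, and -0.11 without replicate 1. In males the 8 injured vehicle mice stood at 191, 205 and 226 CPM against 175 to 207 CPM in sham, a fold change of 0.13 ± 0.067. The groups overlapped in both sexes. Of the 7 genes, 0 passed in females, in males or for the difference, beside 0% of all genes in each (303, 342 and 591 with an unadjusted p under 0.05; DESeq2 called 0 in each). Limma voom with quality weights called 8 genes for the difference and none of the 7. The SB effect in injured mice, taken in each sex, likewise had 0 of 7 genes and 0% of all genes past the threshold in females, in males and for the difference between them (695, 181 and 88 with an unadjusted p under 0.05; DESeq2 called 0 in each).

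Levels in the 2 sexes were compared over cohorts, 4 male against 4 female, because each cohort holds mice of a single sex. Each cohort value was the equally weighted mean of its injured SB, injured vehicle and sham vehicle group means, without sham SB mice. Male minus female, Mapk11 was at -0.19 ± 0.11 and Map2k3 at -0.19 ± 0.099 on the log2 CPM scale, and neither passed (limma, unadjusted p = 0.107 and 0.079, adjusted p = 0.987). The CPM ranges that follow include sham SB mice. Mapk11 ran from 56.7 to 121 CPM (median 80.1) in 35 females and from 53.0 to 88.2 (median 69.6) in 23 males. Map2k3 ran from 9.55 to 20.4 CPM (median 14.9) in females and from 10.2 to 17.0 (median 13.4) in males. The sexes overlapped for both genes. Without cohort F4 the differences were -0.094 and -0.10, and with sham vehicle mice alone -0.038 and -0.053. For the remaining 5 genes the difference lay between -0.017 and 0.061. Of all genes 0% passed, and 293 had an unadjusted p under 0.05.

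The cohort, unlike injury and SB, went with differences that passed. Between the 4 female cohorts 3 of the 7 genes differed, Mapk11, Map2k3 and Mapk14, where 50.0% of all 9636 genes did, so the count for the cascade was near that of the table as a whole. Between the 4 male cohorts 0 of 7 differed, where 3.83% of all genes did. Sizes are given as the range of the cohort coefficients, the highest minus the lowest of the 4 on the log2 scale after allowing for condition.

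Cohort F4 was high for Mapk11 and Map2k3. Its 5 mice had 114, 104, 91.5, 86.0 and 92.2 CPM of Mapk11, whereas the 14 mice of F3 ran from 56.7 to 121 CPM with a median of 62.2, the 10 of F1 from 73.2 to 98.6 with a median of 83.2 and the 6 of F2 from 69.9 to 89.6 with a median of 79.1. Within F3, 11 of 14 mice lay at or under 68.7 CPM, and the highest was female sham vehicle replicate 7. The range of the coefficients was 0.48 (adjusted p = 0.0022 by edgeR), and without the 4 far libraries it was 0.53.

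Map2k3 had 19.5, 20.1, 17.0, 20.4 and 17.2 CPM in the 5 mice of F4, of which 3 lay above every mouse of F1 and 3 above every mouse of F3. The medians were 13.8 in F1, 15.8 in F2, 14.0 in F3 and 19.5 CPM in F4, and the range of the coefficients was 0.45 (adjusted p = 0.00436). Mapk14 had the smallest of the 3 ranges, 0.13 (adjusted p = 0.0199): F1 and F4 had medians of 119 and 119 CPM, F2 and F3 of 112 and 109 CPM, and all pairs of cohorts overlapped. With the replicate number as a block Mapk11 passed at adjusted p = 0.0316 and the other 2 did not (adjusted p = 0.0619 for Map2k3 and 0.0869 for Mapk14).

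The remaining 4 genes had ranges of 0.19 for Map2k4 (adjusted p = 0.0709), 0.19 for Map3k5, 0.10 for Map3k7 and 0.046 for Tab1. In males the largest range was that of Mapk11, 0.24 (adjusted p = 0.54), with M4 at a median of 86.5 CPM and the other cohorts between 66.5 and 68.1 CPM. Cell markers also varied between the female cohorts. Summed inhibitory neuron markers were 701 to 772 CPM in F4, 759 to 898 in F2, 763 to 936 in F3 and 842 to 1020 in F1. Astrocyte markers were 3764 to 4228 CPM in F4, 3869 to 5262 in F2, 3557 to 6162 in F3 and 4731 to 5832 in F1, and excitatory neuron markers 4124 to 5469, 3132 to 5467, 4189 to 6269 and 5607 to 6485 in that order. Microglia markers were 243.7 to 269.7 CPM in F4, 231.6 to 351.1 in F2, 228.1 to 322.2 in F3 and 270.7 to 322.0 in F1. F4 lay below F1 without overlap in each of these lists and overlapped F2 and F3 in each. Oligodendrocyte, endothelial and striatal markers of F4 overlapped those of F1. The part of the cell markers in the cohort differences of Mapk11 and Map2k3 was not tested.

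**Figure D4:**
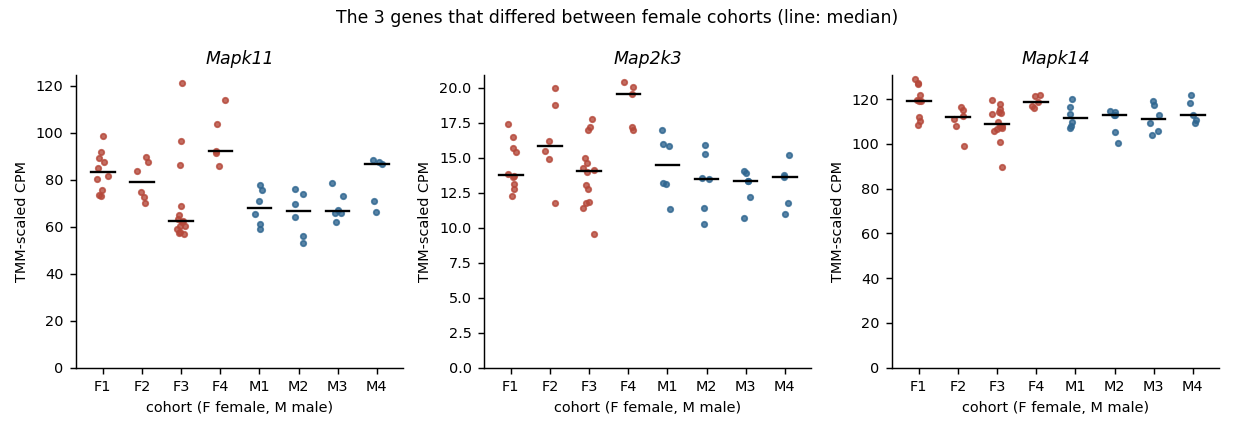
TMM-scaled CPM (vertical axis, from 0) of Mapk11, Map2k3 and Mapk14 in the 8 cohorts, females in red and males in blue. Points are libraries and lines are medians; Mapk11 and Map2k3 have their highest median in F4, and most mice of F3 sit low for Mapk11.

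How the 7 genes varied together was described by Pearson's r of log2 CPM over the 58 libraries with each cohort's mean subtracted, with no test. Mapk11, Map2k3 and Tab1 varied together (r of 0.46 for Mapk11 with Map2k3, 0.46 for Mapk11 with Tab1 and 0.29 for Map2k3 with Tab1). Map2k4, Map3k5 and Map3k7 also varied together, with r between 0.27 and 0.43. All 9 pairs across these sets were negative, from -0.59 to -0.048. These sets were picked after the values were seen. Mapk14 belonged to neither, with r between -0.19 and 0.31.

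The strongest relations were negative. Map2k4 and Tab1 had r = -0.59 (Spearman's rho -0.60, r = -0.63 without the 2 libraries farthest from the median of Map2k4), and Map2k4 and Mapk11 had r = -0.57 (rho -0.56, -0.51 without the 2 libraries farthest from the median of Mapk11). Both were negative in 8 of 8 cohorts. Without subtracting cohort means the 9 pairs across the sets ran from -0.51 to 0.057.

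**Figure D5:**
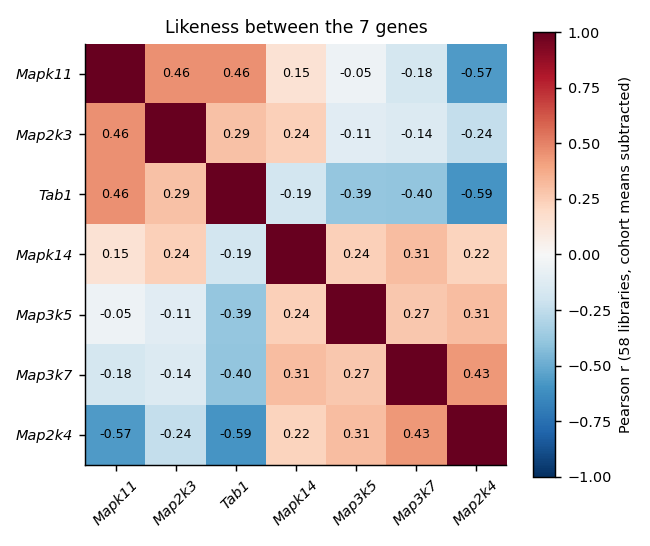
Pearson's r between each pair of the 7 genes over 58 libraries after subtracting cohort means, printed in each cell and coloured from blue (-1) to red (1). Mapk11, Map2k3 and Tab1 form a red corner, Map2k4, Map3k5 and Map3k7 another, and the cells between them are blue.

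The sets also differ in features of their transcripts. Mapk11, Map2k3 and Tab1 have longest coding transcripts of 2461, 2198 and 2964 bases with 56.7%, 54.4% and 58.2% GC. Map2k4, Map3k5 and Map3k7 have 3695, 5450 and 5773 bases with 45.0%, 49.9% and 45.2% GC. Mapk14 lies between the sets in GC at 52.5%, with 3592 bases, close to the medians of all genes (3476 bases and 50.2%).

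Libraries differed as a whole along this axis. The mean log2 CPM of the 2377 shortest transcripts (up to 2240.5 bases) minus that of the 2377 longest (from 5079.5 bases) was highest in cohort F4, at -0.91 ± 0.099 (SD, n = 5), and lowest in F1, at -1.25 ± 0.055 (SD, n = 10). This balance had r = 0.47 with Mapk11, 0.46 with Tab1 and 0.39 with Map2k3, and r = -0.37 with Map2k4, -0.51 with Map3k5 and -0.57 with Map3k7 (n = 58, cohort means subtracted). Leaving out the 2 libraries with the most extreme balance gave 0.30, 0.42, 0.33, -0.32, -0.51 and -0.65 in that order. Mapk14 was at -0.071, or -0.24 without those libraries. Map2k3 is itself among the short transcripts, and Map3k5 and Map3k7 are among the long, so their signs were partly set by the measure. Many genes had values beyond these: with all libraries 81.9% of genes had a lower r than Mapk11, 81.7% than Tab1 and 77.0% than Map2k3. The shares with a lower r were 25.4% for Map2k4, 17.1% for Map3k5 and 13.7% for Map3k7. By condition the balance was -1.22 ± 0.053 in sham SB mice (SD, n = 5) and -1.06 ± 0.26 in sham vehicle mice (n = 14). It was -1.19 ± 0.14 in injured SB mice (n = 19) and -1.11 ± 0.17 in injured vehicle mice (n = 20). The 2 male sham SB libraries lay at -1.30 and -1.25, and the 5 male sham vehicle libraries ran from -1.27 to -0.75. All values in a library share its depth and scaling. The part of this balance in the likeness of the genes, in the cohort differences or in the values of sham SB mice was not tested.

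The genes nearest to each kinase by the same measure were, with the highest r first, Cdk9, Ccl27a and Rnf112 for Mapk11 (0.87, 0.87 and 0.86) and Vps41, Fgf12 and Glrb for Map2k4 (0.89, 0.87 and 0.87). Map3k7 was nearest to Zfp715, Mtx3 and Ppip5k2 (0.83, 0.82 and 0.82) and Map3k5 to Ildr2, Ipcef1 and Akap5 (0.79, 0.75 and 0.74). Tab1 was nearest to Lonp1, Sugp1 and Fbxo2 (0.74, 0.73 and 0.72). Likeness was weaker for Mapk14, with Parp6, the phosphatase gene Dusp14 and Mrps17 at 0.66, 0.64 and 0.63, and for Map2k3, with Mrm1, Snx11 and Rabl2 at 0.57, 0.54 and 0.53. None of these 21 places was held by another of the 7 genes. The closest they came was rank 52 of 9635, Mapk11 among the genes like Map2k3. In the reverse direction Map2k3 had rank 1113 among the genes like Mapk11. All other ranks within the 2 sets lay between 814 and 2801, so many genes outside a set were nearer to its members.

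Around the 7 genes, 46 of 60 further genes of the pathway lists were measured. The 2 other p38 kinases, Mapk12 and Mapk13, were not analysed here. For injury in vehicle mice 0 of 46 passed and 29 were higher, with a median log2 fold change of 0.014 beside -6.7e-04 over all genes. For SB in injured mice 0 of 46 passed and 29 were higher, with a median of 0.026 beside 0.0034, and for SB in sham mice 0 of 46 passed and 33 were higher, with a median of 0.034 beside -0.0087.

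The measured pathway genes of smallest p did not pass after adjustment in any of these comparisons. For injury, Gadd45b, which binds and activates the kinase MEKK4, was at -0.24 ± 0.11 (unadjusted p = 0.03), and Tab2, another partner of TAK1, at 0.060 ± 0.033. Of p38's downstream kinases, Mknk2 was at -0.077 ± 0.061 and Rps6ka5 at 0.084 ± 0.075. The phosphatase genes Dusp16 and Dusp1 were at 0.094 ± 0.081 and -0.17 ± 0.19, and Map2k2 of the ERK cascade at -0.14 ± 0.077.

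For SB in injured mice, the upstream kinases Pak1 and Map3k4 were at -0.060 ± 0.033 and 0.054 ± 0.035. All 5 downstream kinases measured were above 0, with a median of 0.042 beside 0.0034 over all genes, and Mknk2 was at 0.10 ± 0.055 and Rps6ka4 at 0.075 ± 0.061. The phosphatase genes Dusp16 and Ppm1d were at -0.11 ± 0.073 and -0.049 ± 0.053. Mapk8ip3, a JNK scaffold, was at 0.075 ± 0.042 and Mapk7, which encodes ERK5, at 0.079 ± 0.065. For SB in sham mice, Map3k13, another MAP3 kinase, was at 0.27 ± 0.12 (unadjusted p = 0.0315) and the scaffold gene Mapk8ip2 at 0.12 ± 0.068. All 5 downstream kinases measured were above 0 there as well, with a median of 0.031 beside -0.0087 over all genes. In injured mice and in sham mice 0 of these 5 had an unadjusted p under 0.05. The share of all genes above 0 was not counted, so no SB effect was read from these signs. In sham mice Rps6ka4 and Rps6ka5 were at 0.069 ± 0.10 and 0.050 ± 0.12, Ppm1l and Dusp1 at 0.14 ± 0.088 and -0.24 ± 0.30, and Mapk8ip3 and Braf at 0.14 ± 0.073 and 0.16 ± 0.097.

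Between female cohorts 22 of the 46 passed, against 50.0% of all genes, and the median range was 0.21 beside 0.24 over all genes. They were 13 of 21 upstream kinases and adaptors, 2 of 5 downstream kinases, 2 of 6 phosphatases and 5 of 14 genes of the JNK and ERK cascades. Of the upstream genes, the 4 of smallest p were Mapk8ip2, Pak1, Spag9 and Gadd45b, with ranges of 0.33, 0.21, 0.37 and 0.68. The downstream kinases were Mknk1 and Rps6ka4, with ranges of 0.19 and 0.27, and the phosphatases Ppm1l, which acts on TAK1, and Dusp1, with 0.52 and 0.77. In the JNK and ERK cascades the JNK scaffold genes Mapk8ip1 and Mapk8ip3 had ranges of 0.37 each, the JNK gene Mapk9 0.28 and Map2k1, an activator of ERK, 0.21. Between male cohorts 1 of 46 passed, Ppm1l with a range of 0.41 (adjusted p = 0.0245), against 3.83% of all genes.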

How the data were processed

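Polyadenylated RNA of somatosensory cortex was sequenced from directional libraries, per the labels' protocols. The authors deposited raw read counts per gene, made with STAR and featureCounts on GRCm39/mm39, and used DESeq2, per the submitters' processing notes. Versions, strand setting and gene models were not given in the sources used here, so overlapping genes could share counts. The smallest count listed is 101, so genes of low count had been left out before deposit by a rule not given here.

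The main test was that of edgeR 4.0.16 in R 4.3.3 (TMM, robust quasi-likelihood fit, 14 coefficients, 44 residual degrees of freedom). The model held the 8 groups of sex, injury and treatment, and the cohort within sex. Comparisons over both sexes average the 2 sexes' differences and are two-sided, with Benjamini-Hochberg adjustment at 0.05 over 9636 genes. Cohorts were tested by an F test of their coefficients, and sexes with limma 3.58.1 on 8 cohort means of log2 CPM (prior count 2). Transcript lengths came from GENCODE vM21, which is on GRCm38. The 7 genes, the pathway and marker lists and the tests were chosen with earlier results of these data known. All 7 genes are named. For injury, SB in injured mice, SB in sham mice and the cohorts, other pathway genes are named where they pass, at most 4 per list and direction, or else the 2 of smallest p per list, except 1 gene that is not reported here. On data simulated for the injury comparison with 9636 genes, 70.1% of genes changed by 0.25 (log2) were recovered and 100% at 0.5. For genes changed by the same sizes in cohort F4 alone, 17.9% and 95.5% were recovered by the female cohort test. The simulation gave all genes 1 coefficient of variation (0.123), drew genes independently and held no other cohort differences. Mapk11, Map2k3 and Tab1 varied more (0.151, 0.144 and 0.128), so these shares need not hold for the 7 genes. Replicate numbers did not pair samples: deviations of 62 same-numbered pairs had a median r of -0.014, and 19 pairs had an r over 0.1. The labels do not state that every library is a separate animal. Libraries were treated so, and p-values measure the spread between these samples, part of which may be technical. The lowest chi-square per degree of freedom among 227 pairs within groups was 9.83, so no library was a resequenced copy of another of its group. Pairs across groups were not compared, and separate preparations of the same animal would not be seen this way. Alternatives were other size factors, DESeq2 1.42.0, limma voom with quality weights, a filter at a mean count of 1000, no cohort term, a replicate block, each library left out, and, chosen after seeing the data, the 4 far libraries left out.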

Additional observations from a re-analysis of the deposited data

How the results depend on the processing

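Of 28 fold changes, 1727 of 1764 alternative values kept their direction and 37 reversed, and none gained a call. Reversed for injury in vehicle mice were Map2k3 (-0.023 with voom, -0.028 with the replicate block, -0.020 to 0.044 with a library left out), Map2k4 (-0.0053 with voom, -0.0086 without the 4 far libraries), Map3k5 (-0.0052 with voom, -0.0099 without the 4 far libraries, -0.0014 to 0.054 with a library left out), Map3k7 (-0.0011 without the 4 far libraries) and Tab1 (9.7e-04 with voom, 0.0078 with the block, 0.053 without the 4 far libraries, -0.040 to 0.027 with a library left out). For SB in injured mice they were Map2k3 (0.0097 with voom), Map2k4 (0.019 with voom, -0.026 to 0.0040 with a library left out) and Map3k7 (-0.0017 with upper-quartile factors, -0.0047 to 0.027 with a library left out). For SB in sham mice they were Mapk14 (-4.8e-04 with upper-quartile factors) and Map3k7 (-0.0087 with voom, -0.013 without the 4 far libraries, -0.0078 to 0.042 with a library left out). Voom with quality weights called 1 gene for SB in injured mice, 2 for SB in injured females and 8 for the sex difference of injury, none of them among the 7. Between female cohorts the replicate block left 2602 genes and 1 of the 7, Mapk11, and changed no other call of the 7 genes. Map2k4 passed there with voom (adjusted p = 0.00884) and without 1 of 4 single libraries. Between male cohorts DESeq2 called 613 genes, voom 3045, the block 90, the fit without the 4 far libraries 1258, and fits with a library left out 28 to 769. Of the 7, voom called 1 there, Map2k4 (adjusted p = 0.0441). By median transcript length Mapk14 stood at 35.9, Map3k5 at 26.6 and Map2k4 at 255 CPM per kilobase. The cause of these changes was not tested, other than fewer libraries or another length. Depth limits none of the 7 genes. The spread between libraries does, most of all for Mapk11 and Map2k3 and for the 5 sham SB mice.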
